A study of Mus musculus with 8 samples.

Results

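Guanylate-binding proteins are large GTPases of the dynamin superfamily that interferons induce. In mice their genes lie in 2 clusters, on chromosomes 3 and 5. The members described here were the rows named Gbp2, Gbp3, Gbp5, Gbp6, Gbp7, Gbp8 or Gbp9. Of these 7 names, 6 had a row among the 11996 genes of the deposited table, and Gbp8 was not analysed here. RNA was sequenced from macrophages of C57BL/6 mice that had been drawn into the peritoneum by thioglycolate, an irritant, and had adhered to plastic for 24 h. The 4 groups were Ptpn1-/- cells given IL-10 at 100 ng/ml for 4 h, Ptpn1-/- cells after mock treatment, wild-type cells given IL-10 in the same way, and wild-type cells after mock treatment. They are called KO IL-10, KO mock, WT IL-10 and WT mock below. The sample titles call the mock cells untreated. PTP1B, the product of Ptpn1, is a tyrosine phosphatase whose substrates include JAK kinases and growth factor receptors. The labels give no age or sex, no account of how Ptpn1 was deleted, and no statement that mock and IL-10 cells came from separate mice. Ptpn1 itself (ENSMUSG00000027540) was listed at 5391.5 units in KO IL-10, 3836.5 in KO mock, 6736 in WT IL-10 and 4960.5 in WT mock. It was thus lower in the knockout under both treatments but not absent, and since the deleted part is not given this is a weak check of genotype.

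The labels list 2 samples in each group, and the table gives 1 value per gene and group. Every value below is therefore the authors' signal for a group, with no spread between replicates, no test of a difference and no known sequencing depth. The signal is in the authors' units, of which each column holds 26705598 in all. A log2 ratio compares signals after a pseudocount of 26.7 units, 1 ppm of that total, was added to each, which understates the ratios of weakly expressed genes. A gene is called when this ratio is at least 2-fold in size, and shares of called genes are given over the 11400 genes whose mean signal reached the same 26.7 units. No listed Gbp member fell below that level. Gbp5 reached it through its IL-10 columns, since both of its mock values were lower.

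Guanylate-binding proteins act inside the infected cell. They gather on the vacuoles of parasites and bacteria and on the surface of bacteria that escape into the cytosol, and they help to expose bacterial lipopolysaccharide to caspase-11 and bacterial DNA to the sensor AIM2. Their genes are switched on by interferon-gamma, in part through IRF1, and by type I interferon through factors that include STAT2 and IRF9. IL-10, which restrains inflammation, signals in macrophages through JAK1 and TYK2, chiefly to STAT3. IL-10 was compared with mock treatment separately in knockout and wild-type cells. Knockout was compared with wild type separately with and without IL-10, and the sizes of the IL-10 responses were then compared.

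Promoter sequences are shown for all members that had an entry in the RefSeq promoter table. They were searched for sequences that interferon-activated factors are known to bind. The table covers 250 bases before to 50 after a gene's start, on build GRCm38.p6, which is not the build of the expression table. Entries were found for 4 of the 7 members, Gbp2, Gbp3, Gbp5 and Gbp7, all on the plus strand of chromosome 3. Gbp6, Gbp8 and Gbp9 had none, so motifs could not be compared between the clusters. Gbp3 had entries for 2 starts, and the upstream one is shown. The windows are chr3:142620413-142620712 for Gbp2, chr3:142559794-142560093 for Gbp3, chr3:142496684-142496983 for Gbp5 and chr3:142530086-142530385 for Gbp7. Capitals mark each match to GAAA, any 2 bases, and GAAA again, the core of the interferon-stimulated response element. All 4 promoters hold it on the minus strand, so that it reads TTTC, 2 bases and TTTC here.
Gbp2: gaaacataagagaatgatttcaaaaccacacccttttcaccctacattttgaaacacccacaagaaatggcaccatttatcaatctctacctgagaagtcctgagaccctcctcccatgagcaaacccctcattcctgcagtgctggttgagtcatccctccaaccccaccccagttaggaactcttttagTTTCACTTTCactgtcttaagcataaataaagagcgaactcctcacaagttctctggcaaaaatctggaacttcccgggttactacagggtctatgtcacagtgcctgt
Gbp3: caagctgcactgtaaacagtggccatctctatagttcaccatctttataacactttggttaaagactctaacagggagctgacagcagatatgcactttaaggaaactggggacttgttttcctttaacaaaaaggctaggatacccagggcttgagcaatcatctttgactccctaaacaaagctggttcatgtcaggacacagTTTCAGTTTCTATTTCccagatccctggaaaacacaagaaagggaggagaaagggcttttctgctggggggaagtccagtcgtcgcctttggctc
Gbp5: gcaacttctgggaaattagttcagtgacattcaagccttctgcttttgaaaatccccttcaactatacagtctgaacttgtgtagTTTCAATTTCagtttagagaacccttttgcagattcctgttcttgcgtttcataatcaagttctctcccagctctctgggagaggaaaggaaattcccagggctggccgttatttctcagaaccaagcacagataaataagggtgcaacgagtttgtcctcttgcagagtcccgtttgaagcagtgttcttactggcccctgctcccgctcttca
Gbp7: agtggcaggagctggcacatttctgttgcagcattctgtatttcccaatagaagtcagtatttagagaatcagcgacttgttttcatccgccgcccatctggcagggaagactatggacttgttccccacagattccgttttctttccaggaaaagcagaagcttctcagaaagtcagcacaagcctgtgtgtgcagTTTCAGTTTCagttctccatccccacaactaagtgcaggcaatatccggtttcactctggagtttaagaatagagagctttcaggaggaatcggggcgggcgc

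The match began 59 bases before the start in Gbp2, 53 in Gbp7 and 165 in Gbp5. Gbp3 held 2 overlapping matches, which began 45 and 39 bases before its upstream start, and none at its other start. Of all 32851 promoters of the table, 3.44% held this element on either strand. The STAT-type motif of TTC, any 3 bases and GAA, which fits both strands alike, occurred in Gbp5 at 245 and 52 bases before the start and in Gbp7 at 106 and 87. It was found in 8.30% of all promoters and did not overlap the capitals. The same motif with a spacer of 4 bases was found in 6.95% of all promoters and, among the members, at the other Gbp3 start, 195 bases before it. These matches describe letters in a window and are not shown to be bound sites.

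**Figure D1:**
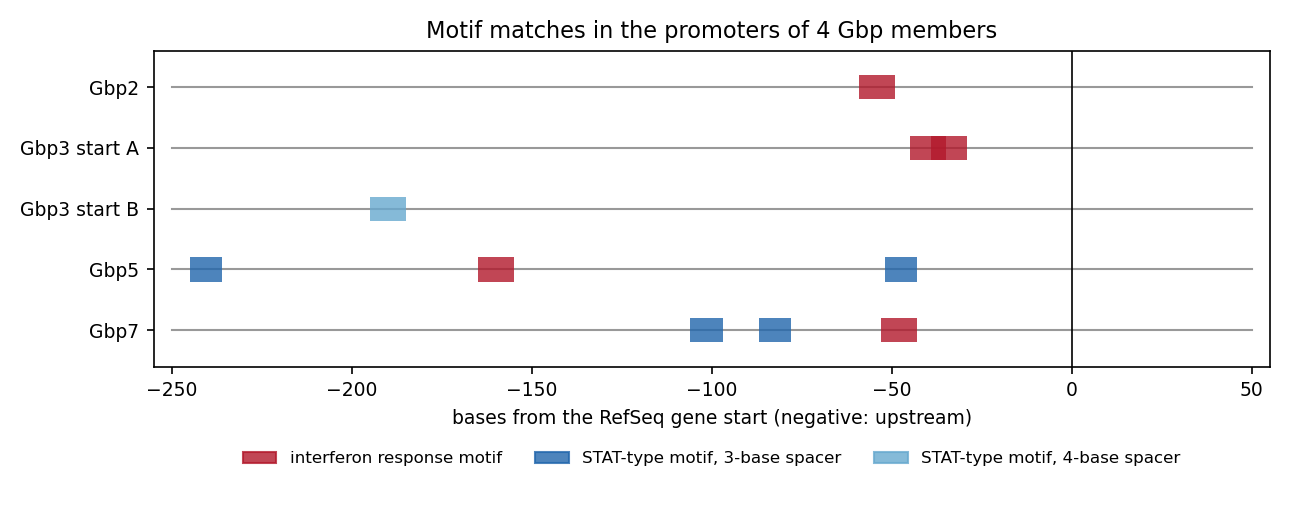
Motif matches along the promoters of Gbp2, Gbp3 (start A is the upstream one), Gbp5 and Gbp7, as blocks at their distance in bases from the RefSeq gene start. The interferon response motif lies between 59 and 39 bases before the start in Gbp2, Gbp3 start A and Gbp7, by its first base, and at 165 bases in Gbp5.

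All 6 listed members had their highest signal in KO IL-10 and their lowest in WT mock, an order that 19.9% of all genes kept also had. Gbp2 (ENSMUSG00000028270; mm9 chromosome 3, 142283566 to 142300972, plus strand), which in mice gathers on Toxoplasma vacuoles and limits the parasite, was listed at 2045.5 units in KO IL-10, 831 in KO mock, 885.5 in WT IL-10 and 516 in WT mock. Gbp3 (ENSMUSG00000028268; mm9 chromosome 3, 142224198 to 142228018, plus strand) stood at 854 units in KO IL-10, 204 in KO mock, 346 in WT IL-10 and 164 in WT mock. In both genes WT IL-10 lay above KO mock. The Gbp3 row spans 3821 bases, whereas GENCODE M21 gives the gene a span of 13184, so the row may cover part of the gene. Fewer cells of a type and less RNA per cell cannot be told apart in samples of this kind.

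Gbp5 (mm9 chromosome 3, 142159898 to 142185308, plus strand), which has been linked to inflammasome assembly, was listed at 237 units in KO IL-10, 26 in KO mock, 63 in WT IL-10 and 20.5 in WT mock. Gbp7 (ENSMUSG00000040253; mm9 chromosome 3, 142193302 to 142213047, plus strand), reported in mice to help assemble the phagocyte oxidase on vacuoles, stood at 855 units in KO IL-10, 289 in KO mock, 467 in WT IL-10 and 238.5 in WT mock. The order of the columns was thus the same in all 4 members on chromosome 3, namely KO IL-10, WT IL-10, KO mock and WT mock. In Gbp2 the middle columns, WT IL-10 and KO mock, were close to each other.

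The members on chromosome 5 had another order. Gbp6 (mm9 chromosome 5, 105699723 to 105722718, minus strand), one of the family members reported to restrict bacteria in mouse macrophages, was listed at 314 units in KO IL-10, 114 in KO mock, 54 in WT IL-10 and 36 in WT mock. Gbp9 (ENSMUSG00000029298; mm9 chromosome 5, 105507413 to 105539311, minus strand) stood at 212.5 units in KO IL-10, 94 in KO mock, 78 in WT IL-10 and 56.5 in WT mock. In both genes the KO columns lay above both WT columns. KO mock exceeded WT IL-10 in 2 of 2 members on chromosome 5 and in 0 of 4 on chromosome 3, beside 55.5% of all genes kept, and with so few members this order is a description only. The summed signal of 6 monocyte markers, all of them listed, had the order of Gbp6 and Gbp9, with 3420.0 units in KO IL-10, 2632.5 in KO mock, 2111.5 in WT IL-10 and 1372 in WT mock. The 6 did not move alike. Ly6c2, with the largest ratio between genotypes, stood at 105.5 units in KO IL-10, 100.0 in KO mock, 13.5 in WT IL-10 and 15 in WT mock. With IL-10, F13a1 was lower in the knockout than in wild type, at 528 units in KO IL-10, 383 in KO mock, 668.5 in WT IL-10 and 381 in WT mock. Their median log2 ratio was 0.74 for KO mock over WT mock and 0.87 for KO IL-10 over WT IL-10. The part of monocytes in the Gbp differences was not tested. With no spread between replicates it cannot be said which neighbouring columns differ beyond error.

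**Figure D2:**
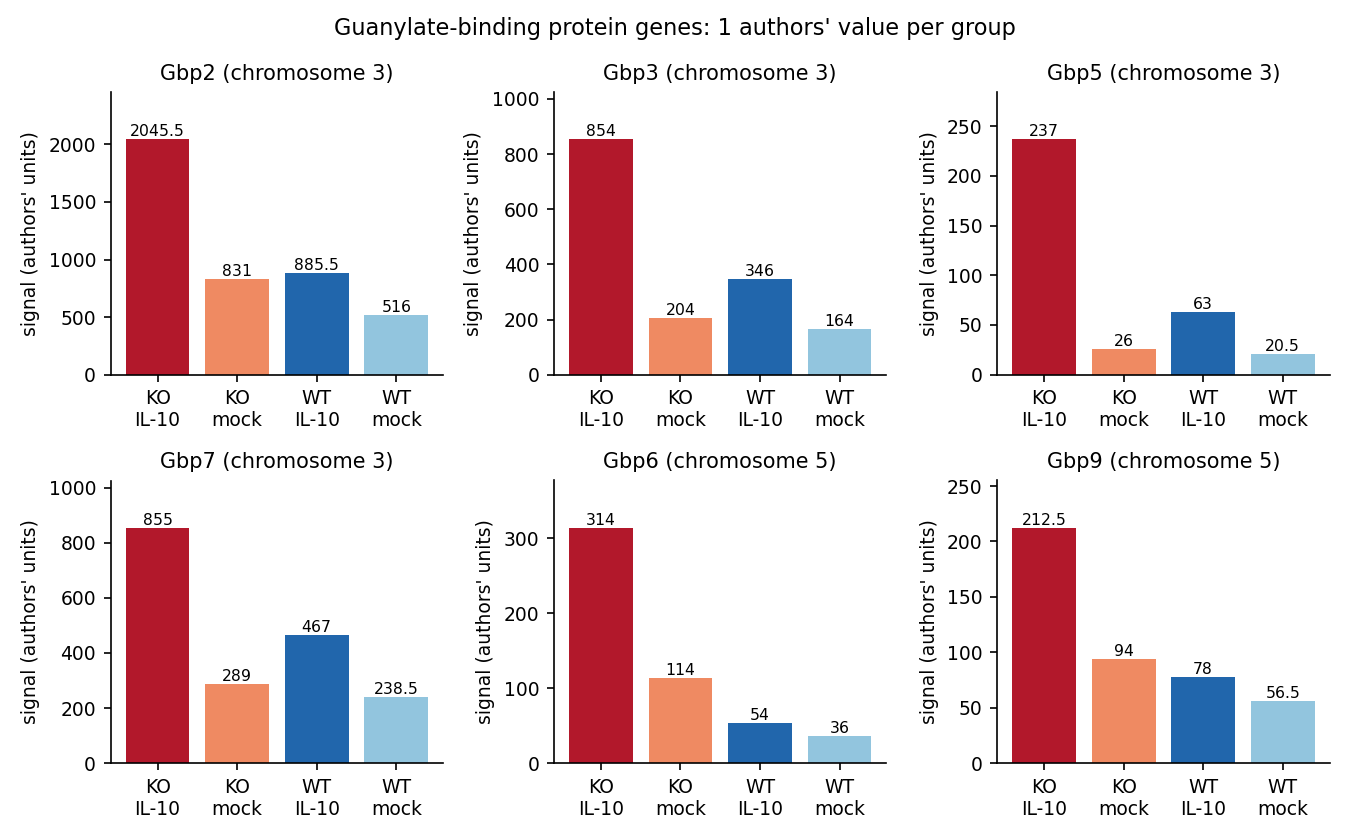
Signal of the 6 listed members, 1 bar per group showing the authors' value in their units on a linear axis from 0, with no error bar because no value per sample was analysed. KO IL-10 is the tallest bar in every panel, and the next tallest is WT IL-10 for the chromosome 3 genes and KO mock for Gbp6 and Gbp9.

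Some rows carry limits of identity. The row named Gbp5 has the identifier ENSMUSG00000040264, which GENCODE M21 gives to Gbp2b, but its span of 25411 bases equals that of RefSeq's Gbp5, whereas M21 gives Gbp5 a span of 28367. The row named Gbp6 has ENSMUSG00000079362, which M21 gives to Gm43302, a locus that overlaps Gbp6, and its span of 22996 bases is 1 base short of the 22997 of M21's Gbp6, whereas RefSeq gives Gbp6 a span of 25170. Neither row thus fits both annotations. Copies within the family are also alike. Of the 50-base words in the longest M21 transcript of Gbp6, 59.7% also occur in a transcript of another gene, with 43.8% in Gbp10 and 51.5% in Gm43302. The share was 2.07% for Gbp2, 4.79% for Gbp3, 2.46% for Gbp5, 12.8% for Gbp7 and 8.31% for Gbp9. The value named Gbp6 may thus include reads of its near copy, and Gbp2b, Gbp4, Gbp10 and Gbp11 were not analysed here as rows of their own. Whether the signal is scaled by length is not given in the sources used here, so levels are compared within each gene and not between genes.

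In knockout macrophages the Gbp genes were higher with IL-10. Gbp5 had the largest ratio, with 237 units in KO IL-10 against 26 in KO mock, a log2 ratio of 2.32 and a 9.12-fold ratio of the signals themselves. Gbp3 followed with a log2 ratio of 1.93, Gbp7 with 1.48, Gbp6 with 1.28, Gbp2 with 1.27 and Gbp9 with 0.99. Thus 5 of the 6 listed members were at least 2-fold higher, beside 0.877% of all genes kept. At 1.5-fold the counts were 6 of 6 and 2.32%, and above a ratio of 0 they were 6 of 6 and 45.2%. With a pseudocount of 4 ppm the log2 ratio of Gbp6 was 0.93. The members' median log2 ratio was 1.38, and that of all genes kept was -0.015. Gbp5 ranked 11 and Gbp3 ranked 20 of 11400 genes from the top, and Gbp9, the lowest of the members, ranked 102. Of the 500 genes nearest to Gbp5 in mean signal, 0 had a log2 ratio as high, and of the 500 nearest to Gbp9, 10 did. The mean signal includes the KO IL-10 column, so these genes were not matched to the mock signal of a member. Gbp5 was below the filter level in both mock columns, which limits its rank too.

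In wild-type macrophages all 6 were also higher with IL-10, beside 49.6% of all genes kept with a ratio above 0, and by less than 2-fold with the pseudocount. As ratios of the signals themselves, Gbp5 was 3.07-fold and Gbp3 2.11-fold higher. Gbp3 had the largest log2 ratio at 0.97, followed by Gbp5 at 0.93, Gbp7 at 0.90 and Gbp2 at 0.75. The chromosome 5 members were lower, Gbp6 at 0.36 and Gbp9 at 0.33. At the 2-fold limit 0 of 6 were called, beside 0.465% of all genes kept, and at 1.5-fold 4 of 6, beside 1.54%. The member median was 0.82, against 0.00 for all genes kept. This count depends on the pseudocount. With 0.25 ppm in its place Gbp3 and Gbp5 passed the limit, with log2 ratios of 1.05 and 1.36.

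Without IL-10, all 6 members had more signal in KO mock than in WT mock, beside 53.5% of all genes kept, and Gbp6 had the largest ratio. Gbp6 was listed at 114 units in KO mock against 36 in WT mock, a log2 ratio of 1.17. Gbp2 had a log2 ratio of 0.66 and Gbp9 of 0.54, while Gbp3 stood at 0.27, Gbp7 at 0.25 and Gbp5 at 0.16. Gbp6 was the 1 member of 6 at least 2-fold higher, beside 0.325% of all genes kept, and its log2 ratio was 0.63 with a pseudocount of 4 ppm. At 1.5-fold the counts were 2 of 6 and 1.43%. The member median was 0.41, against 0.02 for all genes kept. Gbp5, at 26 units in KO mock and 20.5 in WT mock, ranked 2787 of 11400 here, so it stood well inside the range of other genes.

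With IL-10 the genotypes stood further apart. Gbp6 was listed at 314 units in KO IL-10 against 54 in WT IL-10, a log2 ratio of 2.08, and Gbp5 at 237 units in KO IL-10 against 63 in WT IL-10, a log2 ratio of 1.56. Gbp3 had a log2 ratio of 1.24, Gbp9 of 1.19, Gbp2 of 1.18 and Gbp7 of 0.84. Of the 6 listed members 5 were at least 2-fold higher, beside 0.596% of all genes kept, and 6 at least 1.5-fold higher, beside 1.8%. All 6 were above 0, beside 51.8%, with a median of 1.22 against 0.01 for all genes kept. This comparison shares the KO IL-10 column with the knockout response and the WT IL-10 column with the wild-type response, so these counts are not independent of each other.

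**Figure D3:**
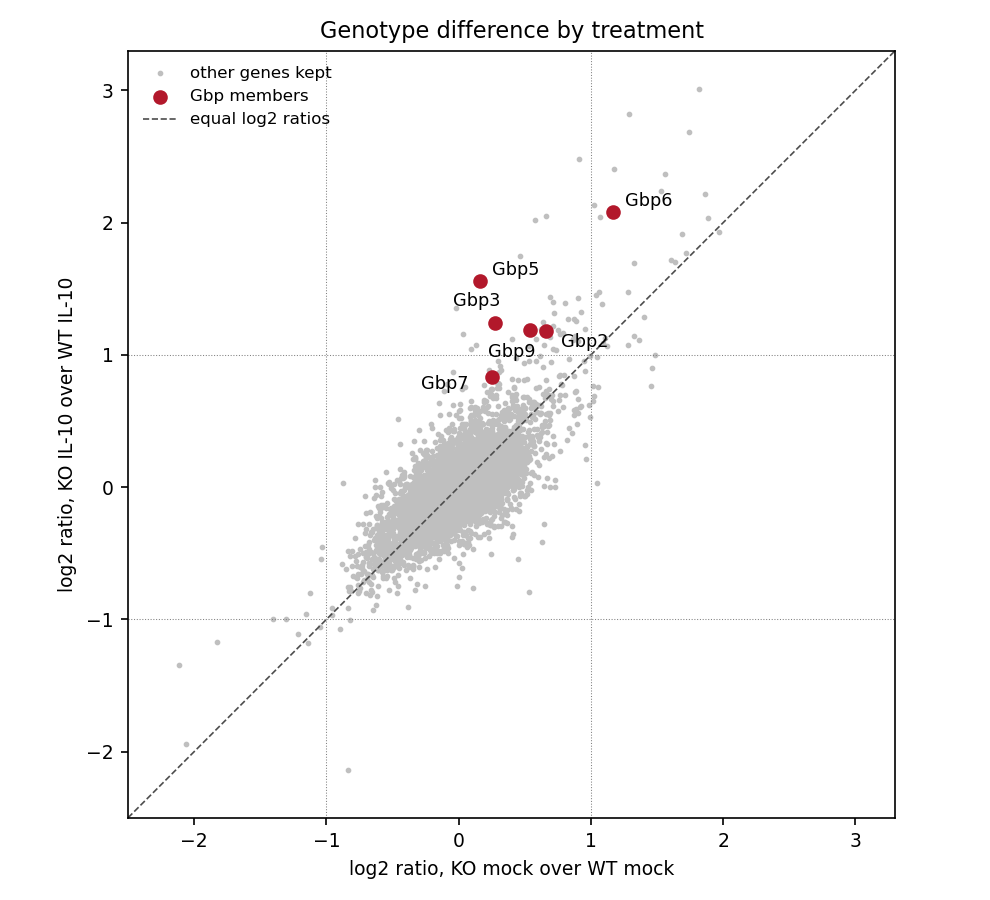
Log2 ratio of KO IL-10 over WT IL-10 against that of KO mock over WT mock, 1 point per gene kept, with Gbp members in red, the dashed line at equal ratios and dotted lines at 2-fold. All 6 members lie above the dashed line, with Gbp6 at 1.17 and 2.08 and Gbp5 at 0.16 and 1.56.

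The IL-10 log2 ratio was larger in knockout than in wild-type cells for all 6 listed members, beside 48.7% of all genes kept. The difference, KO minus WT, was 1.40 for Gbp5, which ranked 4 of 11400 genes, 0.97 for Gbp3, 0.91 for Gbp6, 0.66 for Gbp9, 0.59 for Gbp7 and 0.52 for Gbp2. Gbp5 passed the filter through its IL-10 columns, which limits its rank. Gbp5 was the 1 member of 6 past 2-fold, beside 0.0965% of all genes kept, and its difference was 0.96 with a pseudocount of 4 ppm. At 1.5-fold 5 of 6 were past the limit, beside 0.5% of all genes kept. The member median was 0.78, against -0.0043 for all genes kept. Without a pseudocount, the level in KO IL-10 was 1.43-fold for Gbp2, 1.51-fold for Gbp7, 1.64-fold for Gbp9, 1.84-fold for Gbp6, 1.98-fold for Gbp3 and 2.97-fold for Gbp5 of the level that the separate ratios of IL-10 and genotype to WT mock multiply to.

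**Figure D4:**
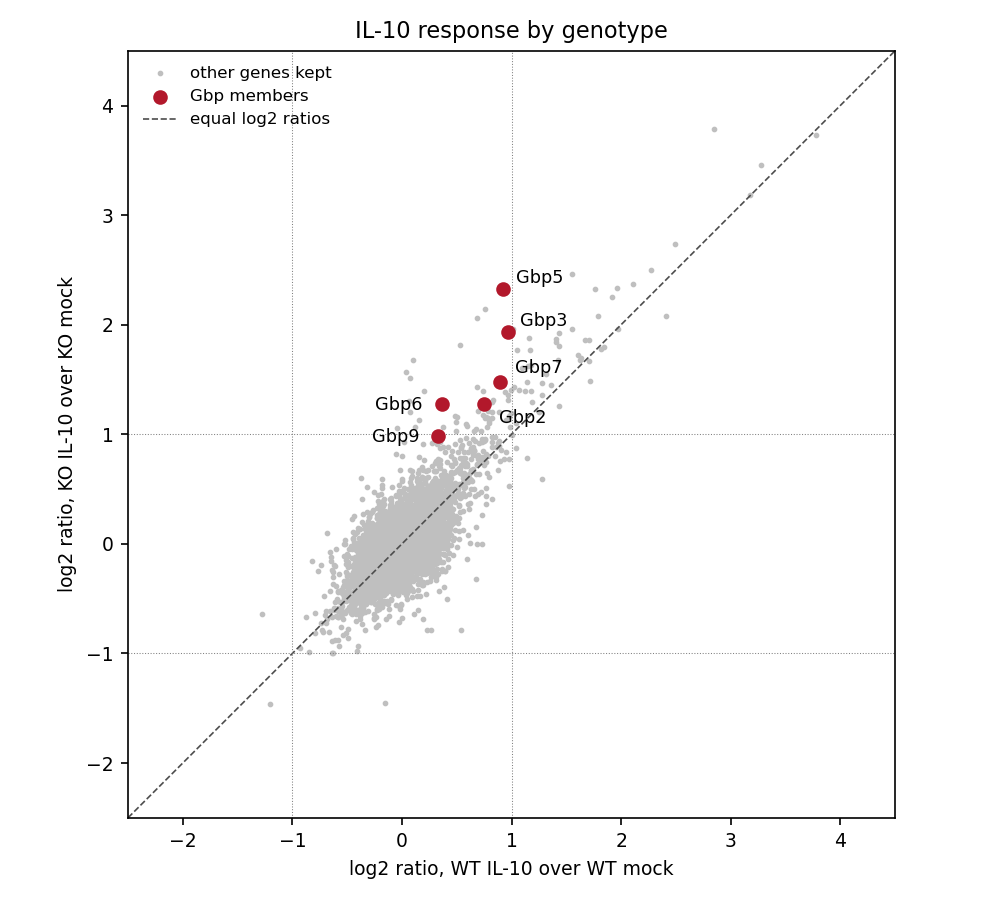
Log2 ratio of KO IL-10 over KO mock against that of WT IL-10 over WT mock, 1 point per gene kept, with Gbp members in red, the dashed line at equal ratios and dotted lines at 2-fold. The members span 0.33 to 0.97 in wild type and 0.99 to 2.32 in the knockout, all above the dashed line.

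The table listed 8 other genes within 300000 bases of the members' outer ends, among them Pdlim5, Gtf2b and Pkn2 on chromosome 3 and Abcg3, Lrrc8b and Lrrc8c on chromosome 5. This window was chosen after values had been seen. Their log2 ratios lay between -0.19 and 0.11 in the knockout response, between -0.08 and 0.33 in the wild-type response, and between -0.27 and 0.38 for KO IL-10 over WT IL-10. None of the 8 reached 1.5-fold in either direction in any comparison. Of all genes kept 0.5% to 2.32% were at least 1.5-fold higher, and the share at least 1.5-fold lower is not given. This count thus says little about 8 genes.

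Among genes of the signalling path upstream of the Gbp genes, Irf1, a factor that binds the interferon-stimulated response element, stood at 2018.5 units in KO IL-10, 1272.5 in KO mock, 1354.5 in WT IL-10 and 989 in WT mock. The columns of Irf1 fell in the same order as those of the chromosome 3 members. Batf2, of the same list, had the order of Gbp6 and Gbp9, at 239 units in KO IL-10, 141 in KO mock, 89 in WT IL-10 and 82 in WT mock. The share of all genes with either order is not given. The part of these factors in the Gbp differences was not tested. The receptor chain gene Ifngr1 was lower with IL-10, at 2512 units in KO IL-10 against 3330 in KO mock and at 2745 in WT IL-10 against 3165 in WT mock. Ifngr2 had log2 ratios of -0.07 in the knockout response and 0.09 in the wild-type response. The 9 genes of this list had a median log2 ratio of 0.34 in the knockout response and 0.09 in the wild-type response. None was 2-fold higher in either, which at shares of 0.877% and 0.465% over all genes kept says little about 9 genes. For KO IL-10 over WT IL-10 the 1 of 9 past the limit, beside 0.596% of all genes kept, was Batf2, a partner factor of IRF1, at 239 units in KO IL-10 against 89 in WT IL-10.

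Of the type I interferon receptor and ISGF3 list, Stat2 had a log2 ratio of 0.84 in the knockout response and 0.40 in the wild-type response, Irf9 of 0.47 in KO cells and 0.22 in WT cells, and Tyk2, a JAK kinase, of -0.15 in KO cells and -0.19 in WT cells. Irf7, a factor that drives interferon production, was the 1 of 6 called between genotypes, beside 0.325% of all genes kept under mock and 0.596% with IL-10, at 2517 units in KO IL-10 against 718 in WT IL-10 and at 2124 in KO mock against 625 in WT mock. Socs1, a feedback inhibitor of interferon signalling, was low, with 107.5 units in KO IL-10, 80 in KO mock, 56 in WT IL-10 and 54 in WT mock. Of 6 genes that encode interferons or cytokines that induce them, 1 was analysed here, Il18, at 124 units in KO IL-10, 98.5 in KO mock, 72 in WT IL-10 and 75 in WT mock.

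The immunity-related GTPases, which act on vacuoles beside the Gbp proteins, had the highest median of the lists in the knockout response. Of 11 genes 6 were listed. With IL-10, 4 of these were 2-fold higher in the knockout, beside 0.877% of all genes kept. In wild type 0 were, beside 0.465%, which says little about 6 genes. The medians of the 6 were 1.27 in the knockout and 0.23 in wild type. Ifi47 stood at 1299 units in KO IL-10, 273 in KO mock, 294 in WT IL-10 and 163 in WT mock. Tgtp2 had a log2 ratio of 1.67 in the knockout response and Irgm2 the smallest, 0.67. Irgm1, which regulates the other members, was at 2898 units in KO IL-10 against 1404 in KO mock. The KO minus WT difference was above 0 in all 6, with a median of 0.96 beside 0.78 for the Gbp members. Whether the lists differ was not tested.

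Other interferon targets had lower medians than the Gbp members in both IL-10 responses. Of 11 listed interferon-gamma targets, 2 were 2-fold higher in the knockout response, beside 0.877% of all genes kept. These were Nlrc5, an activator of MHC class I genes, with a log2 ratio of 1.36, and Cd274, which encodes the checkpoint ligand PD-L1, with 1.15. The median of the 11 was 0.34 in the knockout and 0.17 in wild type. The smallest ratio in the knockout was -0.04, of the MHC class II gene H2-Aa. Of 16 type I interferon targets, 4 were 2-fold higher in the knockout response and 1 in wild type, beside 0.877% and 0.465% of all genes kept. The medians of the 16 were 0.56 in the knockout and 0.19 in wild type. Ifit2 led with 1.57, Zbp1 followed with 1.43, and Rsad2 had the smallest, 0.00. Between genotypes 8 of 16 were called under mock, beside 0.325% of all genes kept, with a median of 0.98 against 0.41 for the Gbp members. In KO IL-10 over WT IL-10, 14 of 16 were called, beside 0.596%, with a median of 1.39 against 1.22.

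**Figure D5:**
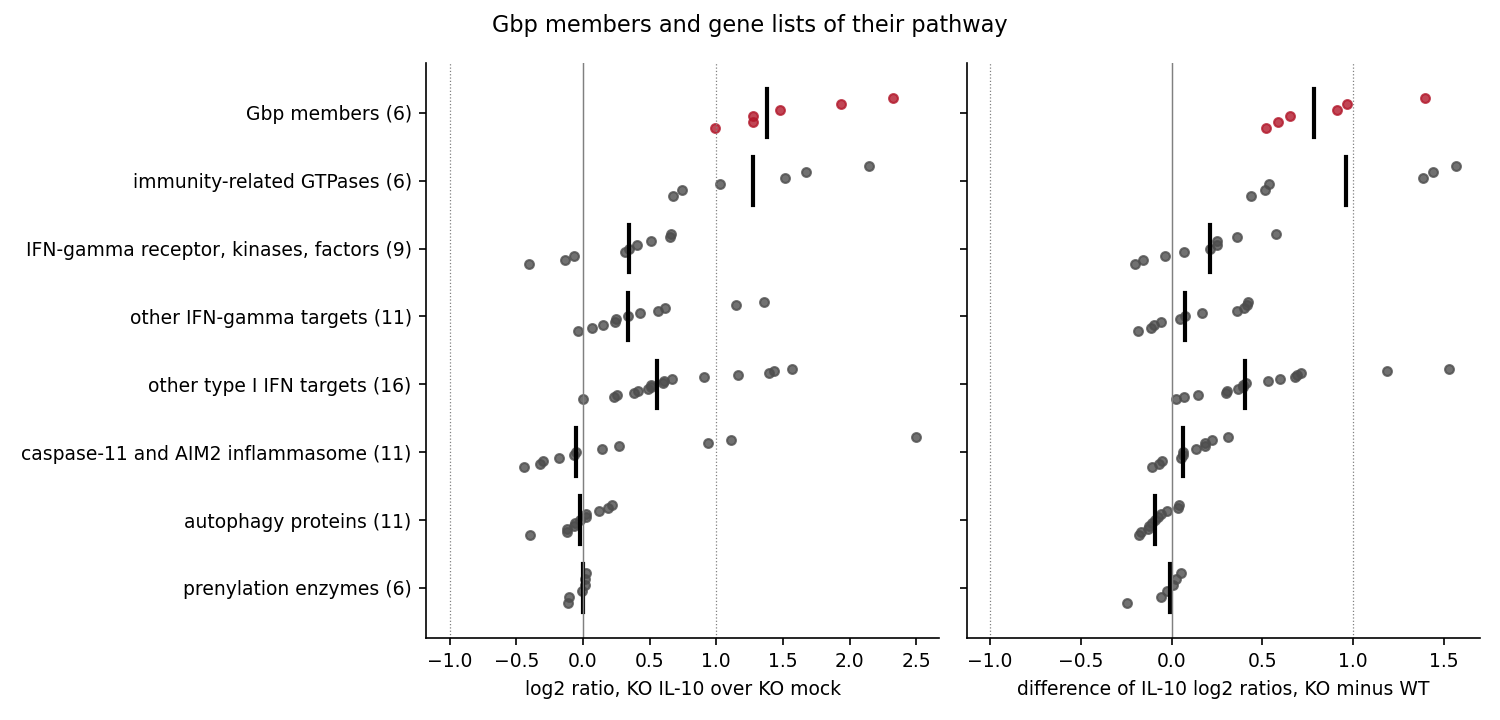
Log2 ratios of KO IL-10 over KO mock (left) and the KO minus WT difference of IL-10 log2 ratios (right) for the 6 Gbp members in red and the kept genes of 7 gene lists in grey, with the number of genes beside each name, black bars at medians and dotted lines at 2-fold. Gbp medians are 1.38 and 0.78, those of immunity-related GTPases 1.27 and 0.96, and those of prenylation enzymes 0.00 and -0.01.

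Among genes through which the Gbp proteins act, Casp4, which encodes caspase-11 in mice, was higher with IL-10 in both genotypes. It stood at 2666 units in KO IL-10 against 450.0 in KO mock, and at 1680.5 in WT IL-10 against 326 in WT mock, so its KO minus WT difference was 0.22. Gsdmd, which encodes the pore-forming gasdermin D, had 1311 units in KO IL-10, 1187 in KO mock, 1142.5 in WT IL-10 and 1178.5 in WT mock. Aim2 had 700.5 units in KO IL-10, 796 in KO mock, 703.5 in WT IL-10 and 739.5 in WT mock. Of the 11 genes of this list 2 were 2-fold higher in each response, Casp4 and Il1b. Over all genes kept the shares were 0.877% in the knockout response and 0.465% in the wild-type response. Il1b was low, at 61 units in KO IL-10 against 14 in KO mock and at 48 in WT IL-10 against 9.5 in WT mock. Casp1 had log2 ratios of 0.93 in knockout cells and 0.88 in wild-type cells.

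The 11 genes of autophagy proteins that help to load Gbp proteins onto vacuoles had a median log2 ratio in the knockout response of -0.02, beside -0.015 for all genes kept, from 0.22 for Atg3 to -0.40 for Gabarapl1. The prenylation enzymes, which attach the lipid anchor that some Gbp proteins carry, had a median of 0.00 over 6 genes, from 0.02 for Fntb to -0.11 for Rce1.

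Over the 4 columns, the genes with the profile most like the mean of the Gbp members were Mnda, Ifi204, Kdr, Il21r and Lilrb4. Likeness was the Euclidean distance between log2 signals centred on each gene's own mean, over 4 columns and 9661 other genes with at least 134 units in their highest column. Mnda had a distance of 0.16 and stood at 2813.5 units in KO IL-10, 1028 in KO mock, 1022.5 in WT IL-10 and 625 in WT mock. Ifi204 had a distance of 0.25, Kdr of 0.28, Il21r of 0.28 and Lilrb4 of 0.29. The members themselves lay at 0.20 for Gbp2, 0.37 for Gbp3, 0.41 for Gbp7, 0.48 for Gbp9, 0.58 for Gbp5 and 0.76 for Gbp6, so several other genes were closer to the mean profile than some members were. Gbp3 and Gbp5 were each other's nearest member, at 0.29. Gbp6 was the farthest from any other member, at 0.75 from Gbp2. Of the 6 members, Gbp2, Gbp3, Gbp6, Gbp7 and Gbp9 each lay nearer to a gene outside the family than to any other member. Gbp2 lay at 0.077 from Ifi204, Gbp9 at 0.078 from Mndal and Gbp7 at 0.11 from March1. Gbp6 lay at 0.19 from Slfn1 and Gbp3 at 0.19 from P2ry13. With 9661 outside genes and few other members to choose from, an outside gene was likely to lie nearer. These distances thus say little about likeness within the family, and the same holds for genes near the mean profile.

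The cell label was checked against further marker genes, some of which moved with the groups. Of 8 macrophage markers 7 were listed, with Csf1r between 13685 and 16138 units over the columns and Emr1, which encodes F4/80, between 10088.5 and 11367. The 7 summed to 456868.5 units in KO IL-10, 458148.5 in KO mock, 550993 in WT IL-10 and 644242.5 in WT mock. Most of this sum was Cd68 and Lyz2, which stood at the top of the table, where the same values recur across columns. Lyz2 stood at 136851.5 units in KO IL-10 and KO mock, 272813 in WT IL-10 and 362618 in WT mock. It was the 1 of 7 at least 2-fold lower in KO mock than in WT mock. Cd68 stood at 272612 units in both KO columns and 226524 in both WT columns. For KO mock over WT mock the 7 had a median log2 ratio of -0.14, with 3 above 0. The share of all genes 2-fold lower is not given. Markers of mesothelial cells and fibroblasts summed to 18050.5 units in KO IL-10, 18279 in KO mock, 28988 in WT IL-10 and 30365.5 in WT mock. For other cells that respond to or make interferon, 3 of 8 T cell markers were listed, summing to 335 units in KO IL-10, 410.5 in KO mock, 310.0 in WT IL-10 and 422 in WT mock, and the 7 NK cell markers were not analysed here. Within that sum Lck was called in both IL-10 responses, at 128 units in KO IL-10 against 10 in KO mock and at 105 in WT IL-10 against 11.5 in WT mock. Cd28 was lower with IL-10, at 179 units in KO IL-10 against 369.5 in KO mock and at 194 in WT IL-10 against 395 in WT mock. Of 5 dendritic cell markers 2 were listed, summing to 155 units in KO IL-10, 95.5 in KO mock, 145.5 in WT IL-10 and 107 in WT mock. One of them, Cd209a, was called in both IL-10 responses, at 72 units in KO IL-10 against 14.5 in KO mock and at 61.5 in WT IL-10 against 6 in WT mock. The KO minus WT difference in the IL-10 log2 ratio was 0.29 for Lck and -0.17 for Cd209a. B cell markers summed to between 110.0 and 149 units, neutrophil markers to between 2167.5 and 2563, and eosinophil and mast cell markers to between 643.5 and 968.5. The part of these cells in the Gbp differences was not tested either. The monocyte markers had a median KO minus WT difference in the IL-10 response of 0.02, beside 0.78 for the Gbp members.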

How the data were processed

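RNA sequencing of 8 samples in 4 groups of 2 was deposited as 1 table with 1 value per gene and group. The submitters' processing notes list RSEM, Bowtie and mm9 and assign them no role. For annotation, normalization and gene filter no source used here says more. The deposited values are a normalized expression signal: the authors' table is named for CPM, but each column sums to 26705598, all reach the same maximum of 362618, and all values are multiples of 0.5, as they would be for means of 2 whole numbers. Among the highest signals the same values recur in different genes across columns, as they would if all columns had been given a common distribution. A common total hides any shift common to most genes. Depth per sample is unknown, so no interval or floor is given. The planned limma fits need values per sample and were not run. In their place log2 ratios were computed over the whole table with Python 3.11.15 and pandas 2.3.3, with the pseudocount and filter at 1 ppm of a column and a limit of 2-fold, after a check on simulated data. All 7 members, a few regulators, the 2 largest and the smallest ratio of each list among genes of at least 5 ppm, and the 5 genes nearest in profile were named; further genes, such as flanking genes, single markers, the genes nearest to single members and some list genes given for other comparisons, were named after their values were seen. One gene that this rule names is not reported here. The members and lists were chosen with earlier results of these data known. Promoters are from RefSeq (GRCm38.p6), and transcript words and lengths from GENCODE M21, in which 99.7% of kept genes had a length. Alternatives were other pseudocounts and filters, a 1.5-fold limit, and subtraction of the median of the 500 genes nearest in signal or in transcript length. Ratios without a pseudocount and without the Gbp5 and Gbp6 rows were added after the data were seen.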

Additional observations from a re-analysis of the deposited data

How the results depend on the processing

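No listed member reversed its direction under any alternative run, in any of the 5 comparisons. For a ratio of 2 columns, only the subtracted medians could have reversed it. Of 245 single-member ratios listed under the alternatives, 223 kept their side of the limit, 18 passed it newly and 4 no longer passed it. Of the 18, 11 came from the 1.5-fold limit, with the ratios unchanged. The filters and the removal of Gbp5 and Gbp6 also left the ratios unchanged, so entries under them could not change side. The member medians stayed between 1.24 and 1.51 in the knockout response, 0.54 and 0.90 in the wild-type response, 0.25 and 0.52 for KO mock over WT mock, 1.05 and 1.37 for KO IL-10 over WT IL-10, and 0.59 and 0.80 for the KO minus WT difference. The count of called members in the wild-type response was 2 with a pseudocount of 0.25 ppm, 2 with none and 4 at 1.5-fold. For KO mock over WT mock it was 2 at 1.5-fold and 0 with a pseudocount of 4 ppm, with the filter at 5 or without Gbp5 and Gbp6. For the KO minus WT difference it was 5 at 1.5-fold and 0 in those same 3 settings. The filter at 5 ppm left 3 members, of which 3 were called in the knockout response and 2 in KO IL-10 over WT IL-10. Without Gbp5 and Gbp6 these counts were 3 of 4 and 3 of 4. Shares over all genes are given above only for the main setting and the 1.5-fold limit, so the other counts have none beside them. No paired analysis was possible because the table has no column per sample. For the same reason no replicate could be left out, and those alternatives were not run. Low signal limits Gbp5 and Gbp6 most, at 20.5 and 36 units in WT mock.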

Other observations

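Some neighbouring gene groups are given here as values. Gvin1, a giant interferon-inducible GTPase, was listed at 5498 units in KO IL-10, 2876 in KO mock, 3204 in WT IL-10 and 2508 in WT mock, the same order of columns as in the Gbp genes of chromosome 3. It had the largest knockout response of the 5 listed genes of large interferon-inducible and dynamin-like GTPases, a log2 ratio of 0.93, and the median of that list was 0.10. Mx1, an antiviral GTPase of that list, had 95.5 units in KO IL-10, 85 in KO mock, 30.0 in WT IL-10 and 33 in WT mock, so that it differed by genotype and little with IL-10.

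Of 7 feedback inhibitors of interferon signalling, Socs3 had a log2 ratio of 3.46 in the knockout response and 3.28 in the wild-type response. It was the 1 of 7 called in each, beside 0.877% and 0.465% of all genes kept, and its KO minus WT difference was 0.18. Ptpn2, a phosphatase related to PTP1B, had 0.46 in KO cells and 0.30 in WT cells. Usp18, which restrains the type I interferon receptor, had -0.39 in KO cells and -0.19 in WT cells. Usp18 was the 1 of 7 called between genotypes, beside 0.325% of all genes kept under mock, at 277 units in KO mock against 98.5 in WT mock. Genes for galectins and ubiquitin ligases that tag damaged vacuoles had a median of 0.14 over 7 genes in the knockout response, from 0.30 for Lgals8 to -0.06 for Traf6.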
